A study of Mus musculus with 6 samples.

Results

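The S100a gene cluster of mouse chromosome 3 was examined for sites that opened or closed in tumor-infiltrating monocytic myeloid-derived suppressor cells (M-MDSCs) during treatment with histone deacetylase (HDAC) inhibitors. The 10 genes were chosen by name: S100a1, S100a3, S100a4, S100a5, S100a6, S100a8, S100a9, S100a10, S100a11 and S100a13, of 21755 protein-coding genes in the annotation. A peak was counted for a gene when it overlapped the gene body or the 20 kb on either side. By this rule 14 of all 11800 deposited peaks belonged to the cluster, and a peak near several genes was counted once.

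Open chromatin was profiled by ATAC-seq: a transposase enters accessible DNA and leaves sequencing adapters there. The M-MDSCs (CD11b+ Ly-6C high Ly-6G-) had been sorted by flow cytometry from Hepa 1-6 tumors, a mouse hepatoma line grown in the liver of wild-type C57BL/6J mice. The mice received vehicle, MS-275 or CXD101, both inhibitors of HDAC1, HDAC2 and HDAC3, and each of the 3 groups had 2 libraries. The tumor and the genotype were common to all groups, and the label that differed between them was the drug. Peaks had been called after pooling the libraries of a group, so no value per library was used and the differences below have no replicate check. Pooled depth was 1.14 times that of vehicle in the MS-275 group and 1.14 times in the CXD101 group. A sample of sorted cells can hold cells of other kinds, and a change in their share cannot be told apart from a change of chromatin within M-MDSCs.

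S100 proteins are small calcium-binding proteins of the EF-hand family. S100a8 and S100a9 pair to form calprotectin, which is abundant in neutrophils, monocytes and MDSCs and is released as a danger signal that engages Toll-like receptor 4 and the receptor for advanced glycation end products. The other members act mainly through partner proteins inside the cell, such as annexins and non-muscle myosin. HDACs remove acetyl groups from histones, and their inhibition raises histone acetylation, a mark of accessible chromatin.

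The 10 genes lay in a pair of groups on chromosome 3 of mm10 (positions 1-based, GENCODE M21). S100a1, S100a13, S100a3, S100a4, S100a5, S100a6, S100a8 and S100a9 ran from 90511034 to 90695721. S100a11 and S100a10 lay 2.82 Mb further, from 93520488 to 93564643. S100a1 and S100a9 are read from the minus strand and the other 8 from the plus strand. The windows around the genes covered 304.0 kb in all.

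The sequences at the sites that carry the results are shown first. The 300 bases before the start of S100a9 are given on the minus strand (chr3:90695722-90696021, mm10), because one gained summit lay in them and another just inside the gene. Capitals mark matches to consensus motifs.
S100a9 upstream: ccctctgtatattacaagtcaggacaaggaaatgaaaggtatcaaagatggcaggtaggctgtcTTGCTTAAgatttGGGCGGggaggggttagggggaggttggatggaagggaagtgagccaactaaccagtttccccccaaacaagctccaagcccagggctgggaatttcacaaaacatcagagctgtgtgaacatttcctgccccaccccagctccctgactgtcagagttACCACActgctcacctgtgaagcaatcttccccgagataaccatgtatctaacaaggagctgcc
The capitals are, in order, a C/EBP match (TTGCNNAA), a GC box (GGGCGG) and a RUNX match (TGTGGT on the other strand), which began 236, 223 and 64 bases before the start. Motifs were searched on both strands, and these 3 did not overlap each other. Of 32851 RefSeq promoters (GRCm38, 250 bases before the start), 9.56% held the C/EBP motif, 32.7% the GC box and 14% the RUNX motif.

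At 5 other sites, 121 bases are given on the plus strand (mm10), with the 11 bases centred on the summit in capitals. They are the gained site with the most MS-275 tags (in S100a3, chr3:90589406-90589526), the one site near S100a8 (chr3:90682525-90682645), the strongest site of the cluster (upstream of S100a11, chr3:93513046-93513166), the site that also differed between the inhibitors (in S100a11, chr3:93521767-93521887) and the site lost with both inhibitors (beyond S100a10, chr3:93572429-93572549).
S100a3 intron: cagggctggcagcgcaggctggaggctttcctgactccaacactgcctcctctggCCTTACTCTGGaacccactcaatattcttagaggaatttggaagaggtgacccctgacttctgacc
S100a8 to S100a9: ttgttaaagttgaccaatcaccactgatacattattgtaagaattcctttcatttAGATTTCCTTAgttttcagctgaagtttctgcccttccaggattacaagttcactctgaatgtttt
S100a11 upstream: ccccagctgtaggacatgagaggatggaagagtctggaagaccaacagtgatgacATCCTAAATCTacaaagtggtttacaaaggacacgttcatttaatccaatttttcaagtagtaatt
S100a11 intron: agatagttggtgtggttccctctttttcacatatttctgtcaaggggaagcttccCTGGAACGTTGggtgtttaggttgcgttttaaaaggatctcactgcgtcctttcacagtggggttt
beyond S100a10: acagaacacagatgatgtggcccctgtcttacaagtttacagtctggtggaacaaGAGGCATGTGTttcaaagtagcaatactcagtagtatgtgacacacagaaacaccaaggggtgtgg

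The first comparison was MS-275 against vehicle. Here 11 peaks were gained near the cluster and 1 was lost. Of the 10 genes, 7 had a gained peak in their window (S100a3, S100a4, S100a5, S100a6, S100a8, S100a9 and S100a11), whereas 18.8% of all protein-coding genes had one. S100a1, S100a13 and S100a10 had none. Among protein-coding genes no longer than the longest S100a gene, 14.5% had a gained peak. The one gene with a lost peak was S100a10, beside 2.93% of all protein-coding genes. Because neighbouring windows overlap, the 7 genes were not independent: 2 gained summits counted for 3 genes each another 2 for 4 genes each, and 1 for 2 genes. The genes were chosen with these lists known, so the counts describe the cluster and were not tested. In the windows there were 36.2 gained peaks per Mb, compared with 3.22 per Mb over the genome and 2.96 per Mb over chromosome 3. These densities are not like for like. The windows were drawn around genes, whereas the genome and chromosome lengths include stretches far from any gene. Density in windows drawn the same way around other genes was not computed, so the gap is not a measure of enrichment at the cluster.

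**Figure D1:**
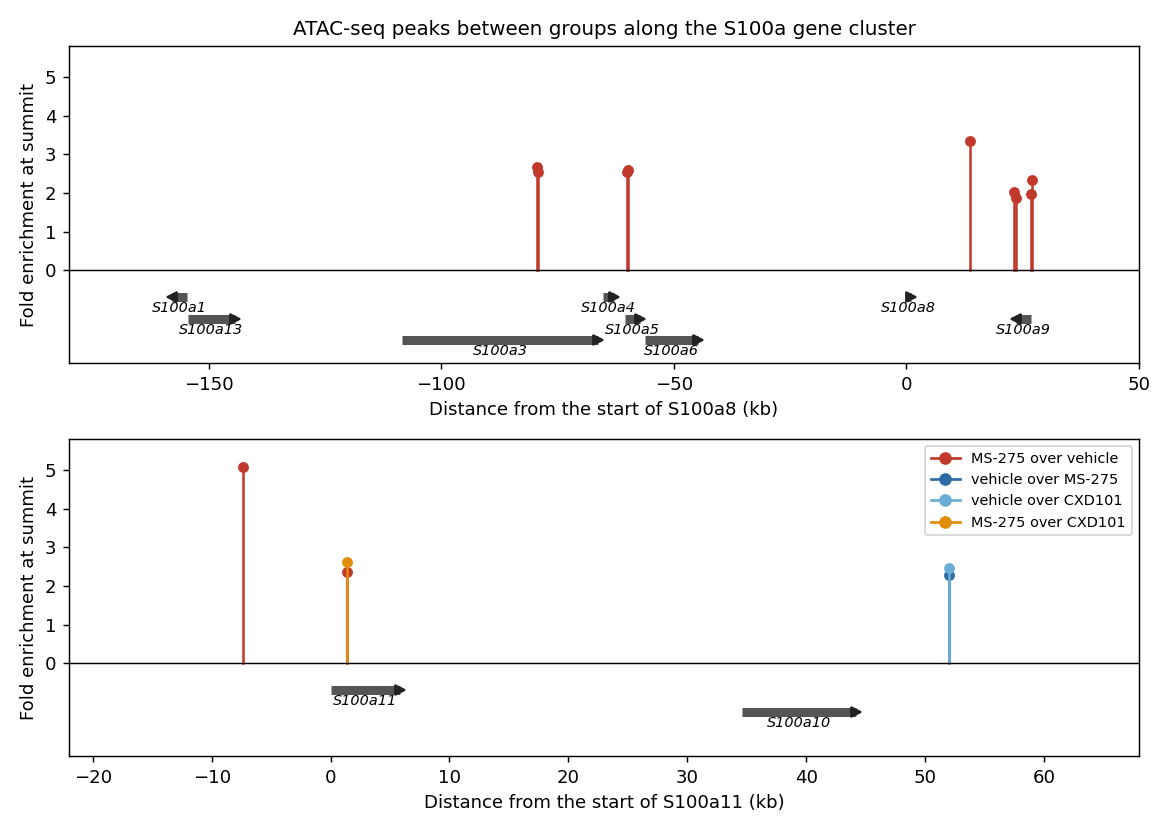
Peaks along the S100a cluster. The x axes give the distance in kb from the start of S100a8 (top) and of S100a11 (bottom), the y axis the fold enrichment at the summit, each stem is 1 peak coloured by its list, and bars with arrowheads are genes with their direction. The 9 gained summits of the upper panel form groups in S100a3, S100a5 and around S100a9, and in the lower panel the highest stem, at 5.07, stands 7.38 kb upstream of S100a11.

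The size of a peak is given by the tags (sequenced read ends, extended) piled up at the summit, scaled to the vehicle depth, by the level of the control group, and by the fold enrichment, which is their ratio after adding 1 to both. The peak caller takes the control level as the maximum over several window sizes, which makes it an upper estimate. At 5 of the 11 gained summits it was not a whole number, hence an average over a wider stretch, and the vehicle pileup at the base itself was no higher than the value given. The p-value behind each peak comes from a Poisson test of the pooled tags and covers counting error only.

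S100a9, a subunit of calprotectin, had the most gained peaks, 5 in its window. Of these, 2 flanked its start and 2 lay just beyond its 3′ end. At the summit 278 bp before the start, within the upstream sequence printed above, the MS-275 group had 80.4 tags over a vehicle level of 34.0, a fold enrichment of 2.33 (−log10 p-value of 11.2). At the summit in the first exon (untranslated), 34 bp past the nearest annotated start, it had 90.1 tags over 45.0, a fold of 1.98. This was the highest vehicle level at any gained site of the cluster, above 95.1% of all gained summits, so the S100a9 start was among the more accessible gained sites already in vehicle. The C/EBP match lay 49 bases and the GC box 60 bases from the upstream summit.

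The summits at the other end of S100a9 had the lowest −log10 p-values of the 11. One lay 588 bp beyond the 3′ end, with 57.7 tags over a vehicle level of 28.0 and a fold of 2.02. The other lay 96 bp beyond it, with 55.1 tags over 29.2, a fold of 1.86 and a −log10 q of 2.46. The peak of this second summit reached 39 bases into the gene. Both folds were near the bottom of the MS-275 gained list, at the percentiles 9.33 and 4.68.

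S100a8, the partner of S100a9 in calprotectin, had a single peak in its window. It lay in the 22.6 kb between the genes, 12.6 kb beyond the end of S100a8 and 10.0 kb from the end of S100a9 (MS-275 gained, summit 90682585). The MS-275 group had 35.0 tags there, the fewest of the 11 sites, but the vehicle level was also the lowest, at 9.80, and the fold was 3.33. No listed peak touched the S100a8 gene or its start, from which the nearest gained summit was 13.6 kb away. Calprotectin's subunits thus differed in what the lists held: gained summits stood at the start of S100a9, and for S100a8 only the distal site was in reach. The site was poor in G and C (33.8% of 201 bases, where the median gained site had 49.8%) and held a C/EBP match 91 bases from its summit.

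S100a3 is annotated with a long gene model of 42.1 kb, which spans S100a2 as well. Both gained summits inside it lay in an intron, 781 and 395 bp before the start of S100a2, the nearest annotated start in GENCODE. RefSeq lists several S100a3 starts, of which the closest was 903 bp before the first summit. At the first summit the MS-275 group had 108.4 tags over a vehicle level of 40, the highest tag number of the cluster, with a fold of 2.67 (−log10 p-value of 18.7, rank 1029 of 8480). At the second it had 73.4 tags over 28.4, a fold of 2.53. The pair lay 386 bp apart and also fell within 20 kb of S100a4 and S100a5. Which gene these sites serve was not measured.

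S100a5 carried the other pair, 298 and 628 bp past its start, in its intron and within 1 peak interval of 458 bp. The MS-275 group had 43.7 and 44.6 tags there, over vehicle levels of 16.6 and 16.5, and the folds were 2.54 and 2.61. S100a4, which binds non-muscle myosin, and S100a6, which binds the calcyclin-binding protein Cacybp, had no peak inside the gene. The nearest gained summits were the S100a5 pair, 5.05 kb past the start of S100a4 and 3.73 kb before the start of S100a6. All of the 4 peaks counted for S100a4 and the 2 for S100a6 were therefore sites in S100a3 or S100a5.

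S100a11, an annexin partner, had the strongest gained site of the cluster, 7.38 kb before its start and intergenic. The MS-275 group had 69.9 tags over a vehicle level of 13, a fold of 5.07 (−log10 p-value of 27.7, −log10 q-value of 22.4). It ranked 164 of the 8480 gained peaks by p-value, above 98.1% of them, and its fold was above 97.8%. The second S100a11 site lay in its intron, 1.34 kb past the start. There the MS-275 group had the same 69.9 tags, but the vehicle level was 29.0 and the fold 2.36. Equal MS-275 tags at the S100a11 sites thus stood on unequal vehicle levels.

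S100a10, the partner of annexin A2, had no gained peak. A site 17.4 kb past its start, beyond its 3′ end, was lost: vehicle had 85 tags over an MS-275 level of 36.7, a fold of 2.28 in favour of vehicle (−log10 p-value of 11.5). S100a1, known for its part in calcium handling of muscle, and S100a13, which takes part in the export of Fgf1, had no peak of any of the 6 lists in their windows. The nearest gained summit was 75.1 kb from the start of S100a1 and 75.0 kb from that of S100a13. The lists give a level only where a peak was called, so the accessibility of these genes was not measured here.

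Over the 11 gained summits, the vehicle level had a median of 28.4 tags and ranged from 9.80 to 45.0, and 9 of 11 lay above the median of all 8480 gained summits, 15.8. MS-275 tags ran from 35.0 to 108.4 with a median of 69.9, compared with 49.8 over the list. The fold ran from 1.86 to 5.07 with a median of 2.53, compared with 2.88 over the list, and 2 of 11 exceeded that value (upstream of S100a11 and between S100a8 and S100a9). The −log10 p had a median of 9.44, compared with 10.3. So the cluster's gained sites mostly started from a higher vehicle level and changed by a smaller fold than the median gained site. Over the whole list the fold also fell as the vehicle level rose: in the bin around 28.2 vehicle tags its median was 2.45, close to the cluster's 2.53. The same lists chose the peaks, so this was not tested. Summits lay within 1 kb of an annotated start at 6 of 11 sites (54.5%), compared with 25.3% of all gained summits. The rule kept summits near genes, which by itself raises this share, and 2 of the 6 were nearest to the start of S100a2, which is not among the 10 genes.

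**Figure D2:**
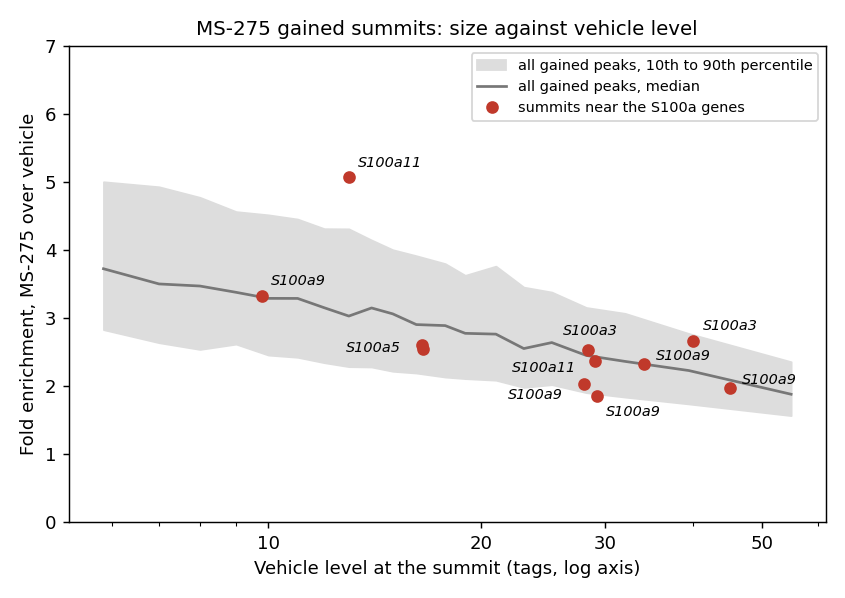
Fold enrichment of MS-275 over vehicle (y axis) against the vehicle level at the summit in tags (x axis, log scale). Red points are the 11 gained summits near the S100a genes, labelled by the nearest gene (the S100a5 pair shares a label), the line is the median of all 8480 gained peaks in 20 bins of equal number by vehicle level, and the band their 10th to 90th percentile. The S100a11 upstream site, at 13 tags and 5.07, lies above the band. The site 96 bp beyond the S100a9 end, at 29.2 tags and 1.86, lies just below the band.

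The second comparison was CXD101 against vehicle. No CXD101 gained peak lay near any of the 10 genes (0 of 10), beside 0.97% of all protein-coding genes. This list held 284 peaks, compared with 8480 in the MS-275 gained list. The paper counts many more peaks than these for both inhibitors against vehicle. An absence from the 284 is therefore not an absence from that larger set. One peak was lost, near S100a10 (1 of 10 genes, beside 3.65% of all). This was the site lost with MS-275, with the summit 8 bp away: vehicle had 86 tags over a CXD101 level of 34.3, a fold of 2.46 (−log10 p-value of 13.4). The levels of 36.7 with MS-275 and 34.3 with CXD101 were close to each other and under the 85 and 86 tags of vehicle. Both lists used the same vehicle libraries, so they are not independent.

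The absence of a CXD101 gained peak was read against the depth. The weakest peak of the CXD101 gained list had a −log10 p of 4.50. With the vehicle levels above, CXD101 would have reached this value at the 11 sites with 25 to 74 tags (median 52), or a fold of 1.63 to 2.41. The MS-275 tags exceeded the number needed at 11 of 11 sites, as they did at 94.4% of all MS-275 gained summits. At the 11 sites this follows from their −log10 p of at least 5.17 in the same Poisson test against the same vehicle levels. It is therefore no separate check of the CXD101 libraries. An opening as large as that with MS-275 would have met this summit value, whereas one under the number needed would not. The summit value is not the only condition for a peak. The width a peak must have was not taken into account, so whether such an opening would have been listed was not tested. The peak between S100a8 and S100a9 was 200 bp long, the shortest length in the MS-275 gained list. The margin was narrow at the 3′ end of S100a9, where the number needed was 96.2% of the MS-275 tags, and wide upstream of S100a11, where it was 42.9%. CXD101 levels at 10 of the 11 sites were not measured here.

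The third comparison set the inhibitors against each other. One peak was higher in MS-275 than in CXD101 near the cluster, so 1 of 10 genes had one, beside 6.68% of all protein-coding genes. It was the intronic site of S100a11, with the summit 1 bp from that of the gained peak. At vehicle depth, the MS-275 group had 69.9 tags and the CXD101 level was 26.0, near the vehicle level of 29.0. The fold of MS-275 over CXD101 was 2.63 (−log10 p-value of 13.8, −log10 q-value of 9.61). The other 10 gained sites had no peak in the direct list. The tags needed for that list were not computed, so this does not show equal levels with the inhibitors. Of the gained sites near the cluster 9.09% overlapped a direct peak, compared with 17.4% of all MS-275 gained sites. No peak was higher in CXD101 than in MS-275 (0 of 10 genes, beside 0.0138% of all).

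**Figure D3:**
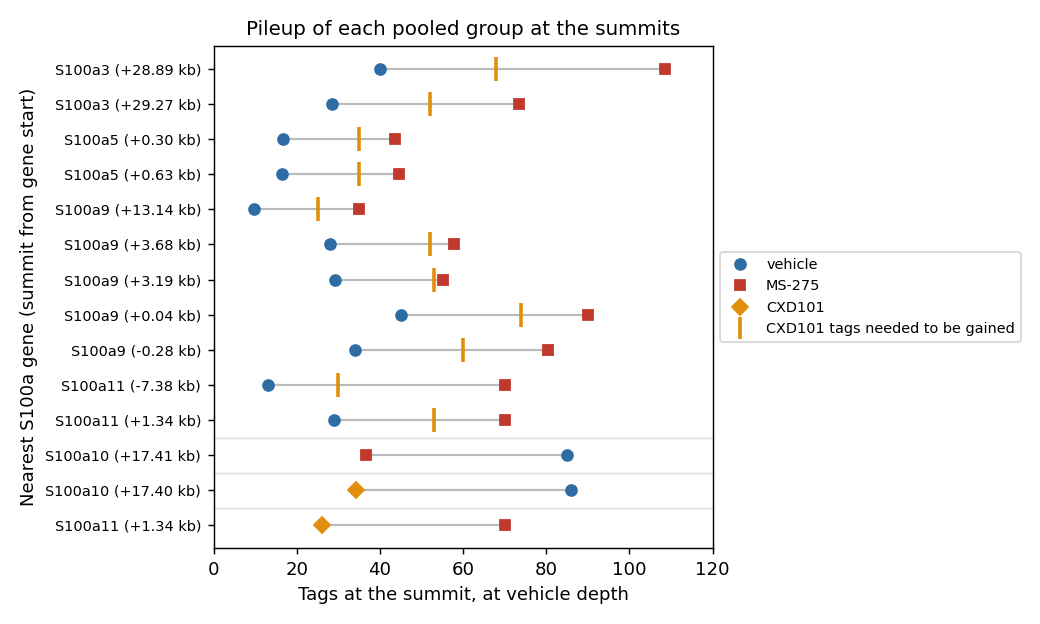
Tags at the 14 summits, scaled to vehicle depth (x axis), with 1 row per peak named by the nearest S100a gene and the distance of the summit from its start (y axis, positive into the gene). The rows are, from the top, 11 MS-275 gained peaks, the peak lost with MS-275, the peak lost with CXD101 and the peak higher in MS-275 than in CXD101. Circles are vehicle, squares MS-275 and diamonds CXD101. The lower point of each row is the control level and thus an upper estimate. Vertical ticks mark the CXD101 tags needed to reach the lowest summit −log10 p of its gained list. All 11 squares of the gained peaks lie to the right of the tick, closest at the S100a9 summit at +3.19 kb.

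The 201 bases centred on a summit were searched for 8 short motifs on both strands. Of the 11 gained summits, 3 held GGGNNNNCC, a loose NF-kB pattern (27.3% of all gained summits), and 2 a C/EBP match (TTGCNNAA, 9.02%). The loose pattern is not a full NF-kB consensus, and 38.7% of RefSeq promoters held it. An IRF match (GAAANNGAA, 6.33%) stood at 2, a RUNX match (TGTGGT, 15.2%) at 2 and a GC box (GGGCGG, 10.6%) at 1. The C/EBP matches were at the S100a9 upstream site and between S100a8 and S100a9, and the IRF matches at the first exon and beyond the 3′ end of S100a9. Matches to the loose NF-kB pattern stood in S100a3, S100a5 and S100a11. No AP-1 (TGANTCA, 4.55%), PU.1 (GAGGAAGT, 1.83%) or CRE (TGACGTCA, 0.165%) match was in these windows. The site upstream of S100a11 held none of the 8, and the site lost near S100a10 held a RUNX match. A match describes the sequence and does not show binding.

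The genes of the wider pathway were counted by the same windows, and each count is read beside the 18.8% of all protein-coding genes with an MS-275 gained peak, the 2.93% with one lost with MS-275, the 3.65% with one lost with CXD101 and the 6.68% with one higher in MS-275 than in CXD101. Of the other S100 genes, 1 of 6 in the annotation had an MS-275 gained peak, S100a2, through the sites in S100a3 and S100a5. None of 8 receptors, co-receptors and adaptors of S100a8 and S100a9 (Ager, Tlr4, Ly96, Cd14, Bsg, Cd36, Cd33 and Myd88) had a peak in any of the 6 lists. Of 7 transcription factors known to act on S100a8 and S100a9, 5 (71.4%) had an MS-275 gained peak (Cebpb, Cebpd, Cebpe, Spi1 and Stat3) and Cebpa and Hif1a had none. Cebpb and Spi1 also had a peak higher in MS-275 than in CXD101. With lists this short and chosen with the data known, the shares are descriptions. The strongest was at Spi1, which encodes PU.1, 7.01 kb past its start, where the MS-275 group had 111.0 tags over 24.4 in vehicle and a fold of 4.41. A second Spi1 site, 5.45 kb past the start, had 110.2 tags over 27.6 and a fold of 3.89, and it was also higher than in CXD101, with a fold of 3.07. Cebpd had 1 gained site, with 90.1 tags over 30.4 and a fold of 2.90, and Cebpe had 8 gained summits with folds between 2.01 and 3.68. The site before the start of Cebpb had 133.8 tags over 76.0, a fold of 1.75. None of these factors had a lost peak or a CXD101 gained peak.

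Of 13 binding partners of the other members, 4 had an MS-275 gained peak, 30.8% beside 18.8% of all genes. Anxa1, an annexin, had 3 gained summits near the edge of its window, 18.6 to 19.6 kb before its start. The strongest by p-value had 78.7 tags over 27.0 and a fold of 2.85, and the highest fold was 3.87. Myh9, the non-muscle myosin heavy chain that S100a4 binds, had 4 gained summits, 7.4 to 15.8 kb before its start. The strongest of these had 41.1 tags over 12 and a fold of 3.23. Ryr2 (summits 78.3 and 147.1 kb past its start) and Fgf1 (9.69 kb before its start) were the others. Anxa1, Myh9 and Fgf1 also had a peak higher in MS-275 than in CXD101 (3 of 13, beside 6.68%). Anxa6 and Ahnak had a peak lost with MS-275 (2 of 13, beside 2.93%), and Ahnak also one lost with CXD101 (1 of 13, beside 3.65%). Anxa2, the partner of S100a10, had none in any list.

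Between the 2 parts of the cluster lie 60 protein-coding genes. Of them 3 (Flg2, Ivl and Smcp), or 5%, had an MS-275 gained peak. The share was 18.8% of all protein-coding genes and 14.5% of those no longer than the longest S100a gene. This stretch of 2.78 Mb between the windows held 9 gained peaks, or 3.23 per Mb, and none of the other 5 lists. Ivl, which encodes the cornified-envelope protein involucrin, had the strongest of them, 39 bp from its start, with 70.8 tags over 15 and a fold of 4.49. The peaks counted for Smcp were those of Ivl.

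S100a8 and S100a9 are expressed by neutrophils as well as by monocytes, so markers of the cell types that the sort could hold were counted in the same lists. MS-275 gained peaks lay near 4 of 7 monocyte, 3 of 10 neutrophil, 4 of 8 macrophage, 4 of 6 T cell and 1 of 6 hepatocyte markers, beside 18.8% of all protein-coding genes. MS-275 lost peaks lay near 3, 1, 0, 1 and 0 of them in the same order, beside 2.93%. Among neutrophil markers, Ly6g, Cxcr2 and Ngp had gained peaks, with folds up to 2.99, 2.14 and 4.33, and Ltf had a lost peak. The T cell count rested on Trac and on 1 peak shared by Cd3e, Cd3d and Cd3g. The lists hold differences between groups and no expression levels, so the labelled cell type could not be checked by them, and the part of other cells in the S100a results was not tested.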

How the data were processed

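ATAC-seq was performed on 6 libraries of sorted M-MDSCs, 2 per treatment label. The authors aligned reads with Bowtie2 to mm10 and called peaks with MACS2 2.2.7.1 on pooled libraries, each group against each other group, giving 6 lists. The shift was 0, so the extended reads were not centred on the transposase cut site and summits can be displaced from it. The size of this displacement was not measured. Distances to starts and motifs are from the called summits and not from cut sites. The deposited fold enrichment is a linear ratio of the first group's summit pileup to the control level set by MACS2. The deposited −log10 values are a Poisson p-value and an adjusted q-value, and the authors gave each summit as an offset from the peak start. These columns are the authors' own comparisons, and the lists hold no other measurement. No q-value above 0.05 is listed, while the methods describe a limit on the p-value.

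From each fold and p-value, tags and control level were solved under the MACS2 rules (pseudocount of 1, depth scaling), which was tested on simulated data. Each of the 14 peaks had 1 solution. Scale factors gave the relative depth, and reads per library were not used here. Genes came from GENCODE M21. Sequence came from the mm10 assembly and the RefSeq promoter table, which matched 9 of the 10 genes. Python 3.11.15, numpy 2.4.6, scipy 1.17.1 and pysam 0.24.0 were used.

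No test was run, since pooled lists give no spread between samples. Named were the 10 genes, every peak in their windows, the nearest annotated start to each, and listed pathway genes with a peak (up to 4 per list by −log10 p). Beyond this rule, Stat3, genes of a list without a peak, direct peaks by name, and the marker genes are named with their counts, chosen after their values were seen. The members, lists and motifs were chosen with earlier results of these data known. Alternatives were stricter thresholds, windows of 5 and 50 kb, overlap by summit, intervals in place of summits, other background genes, a pseudocount of 0 and a 50 bp motif window.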

Additional observations from a re-analysis of the deposited data

Results flagged for a closer look

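The intronic site of S100a11 is the one place in the cluster with a peak in the direct comparison of the inhibitors, which drew attention to it. MS-275 exceeded CXD101 with a fold enrichment of 2.63 in the authors' MACS2 test, run on pooled libraries without a replicate check. The same MS-275 libraries also gave the gained peak over vehicle at this site, so these lists are not independent.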

How the results depend on the processing

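No test depends on these settings, since all values are counts or folds of pooled lists. No paired analysis was possible because peaks were called after pooling and no list has a value for a single library, and leaving out a replicate could not be run for the same reason. Of 100 alternative values, 86 stayed within their limits, which were 1.5 times for a count or share and the 95% binomial interval for a fold. For MS-275 gained peaks near the cluster, every alternative tried did so. With 5 kb windows, the count of peaks lost with MS-275 fell to 0, of genes with such a peak to 0, of peaks lost with CXD101 to 0 and of genes with such a peak to 0, because the site lies beyond S100a10 by more than this distance. With 50 kb windows, 2 genes had a peak lost with MS-275, 2 a peak lost with CXD101 and 2 a peak higher in MS-275 than in CXD101, since wider windows reach the neighbouring gene. The background share for CXD101 gained peaks was 0.634% among genes no longer than the longest S100a gene. Among all GENCODE genes it was 2.33% for peaks lost with CXD101 and 0.00743% for peaks higher in CXD101 than in MS-275. Within 50 bp of the summits, 0 held a GC box, and C/EBP, IRF and RUNX matches stood at 1 summit each, in place of 2. A pseudocount of 0 kept all 14 folds, between 1.89 and 5.38. Depth limits the CXD101 result to openings of the size given in the report, and the effect of peak width was not tested.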
